A study of Mus musculus with 6 samples.

Results

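REST (RE1-silencing transcription factor) is a zinc finger repressor that binds a long DNA element, the repressor element RE1, beside genes of the neuronal programme. One end of the protein recruits Sin3 proteins and the other recruits CoREST scaffolds, which in turn hold the histone demethylase LSD1 and the deacetylases HDAC1 and HDAC2, while the histone methyltransferase G9a joins on RE1 sites. REST is known for keeping neuronal genes silent in non-neuronal cells and in progenitors, and its level falls as neurons differentiate.

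The genes described are Rest and 8 genes of its corepressors: the CoREST scaffolds Rcor1, Rcor2 and Rcor3, the Sin3 scaffold Sin3a, the demethylase Kdm1a, the deacetylases Hdac1 and Hdac2, and the methyltransferase Ehmt2. They are 9 of the 19938 genes measured. All 9 were found among the probes whose annotation holds exactly 1 gene symbol. Where a gene had several probes, the one that stands for it was chosen by its highest mean over the 6 arrays, a value that does not use the contrast between the constructs. The set itself was proposed with results of these arrays in view, so the difference of Rest is given as a description and its p-values support nothing on their own.

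RNA came from N2A cells, a mouse neuroblastoma line, and was hybridised to 6 Affymetrix arrays (Mouse Gene 1.0 ST). Of these, 3 came from cells transiently transfected with an shRNA against Pbcas4, the transcribed mouse unitary pseudogene of BCAS4, and 3 from cells transfected with a scramble shRNA. Both groups were plated 24 h before transfection with lipofectamine Plus and were harvested 72 h after it, and the controls carried a hairpin too. A single hairpin targeted Pbcas4, and the cells that took up no construct were measured together with those that did. The probe annotation used here names no probe of Pbcas4, so its level was not analysed here. The paired stretches of the hairpins, printed 5′ to 3′ from the study's oligonucleotide list because they are the designed difference between the groups, are the following.
sh-pbcas4: gatccctgttgtgacatg
sh-scramble control: agatactcgatcccgcg

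All values are log2 expression levels as the authors deposited them, 1 per probe and array, and all differences are shRNA minus scramble means of log2 values. A gene was called where limma gave an adjusted p (Benjamini-Hochberg, over all probes) under 0.05 with a log2 difference over 0.5 in size. By this rule 0 genes were called, which is 0% of the 19938, and the lowest adjusted p of any gene was 0.297 (limma). At an unadjusted p under 0.05 (limma), 6.22% of the genes had a higher and 5.46% a lower mean under the shRNA. All 3 shRNA arrays lay above all 3 scramble arrays for 9.13% of the genes and below them for 7.63%, and the median difference over all genes was 0.0031. Probes of olfactory receptors, which are mostly silent outside the nose, had a median of 5.49, and their 95th percentile of 7.19 was taken as the upper edge of background. All 9 genes of the set lay above it, as did 13631 of the 19938.

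Rest was the member with the largest difference. Its level in shRNA replicates 1, 2 and 3 was 10.03, 9.78 and 9.92, and in scramble replicates 1, 2 and 3 it was 9.34, 8.86 and 8.79. Every shRNA array thus lay above every scramble array, with 0.44 between the lowest of one group and the highest of the other. The mean was 9.91 ± 0.12 (SD, n = 3) under the shRNA and 8.996 ± 0.30 (SD, n = 3) under scramble, a log2 difference of 0.92 (standard error 0.16, 95% interval 0.52 to 1.31) or 1.89-fold. Between arrays of the same replicate number the difference was 0.69, 0.93 and 1.13. The adjusted p was 0.344 from limma (unadjusted 0.000988), so Rest was not called. It ranked 74 of 19938 by p and 52 by how much higher its shRNA mean was. An exact permutation test gave p = 0.1, the smallest value that 3 arrays against 3 allow. Scramble replicate 1 was the scramble array nearest the shRNA arrays, and without it the difference was 1.09 (adjusted p = 0.0614, limma). With any other single array left out, the adjusted p of Rest was 0.341 to 0.844 (limma). With arrays weighted by their spread, Rest was called at a difference of 1.03 (adjusted p = 0.0171, limma). It was then 1 of 1320 genes called among the 19938, and 32.6% of all genes passed an unadjusted p under 0.05 (limma) in either direction. The weights ran from 0.353 to 5.32. One probe stood for Rest, so splice forms of the gene were not told apart.

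**Figure D1:**
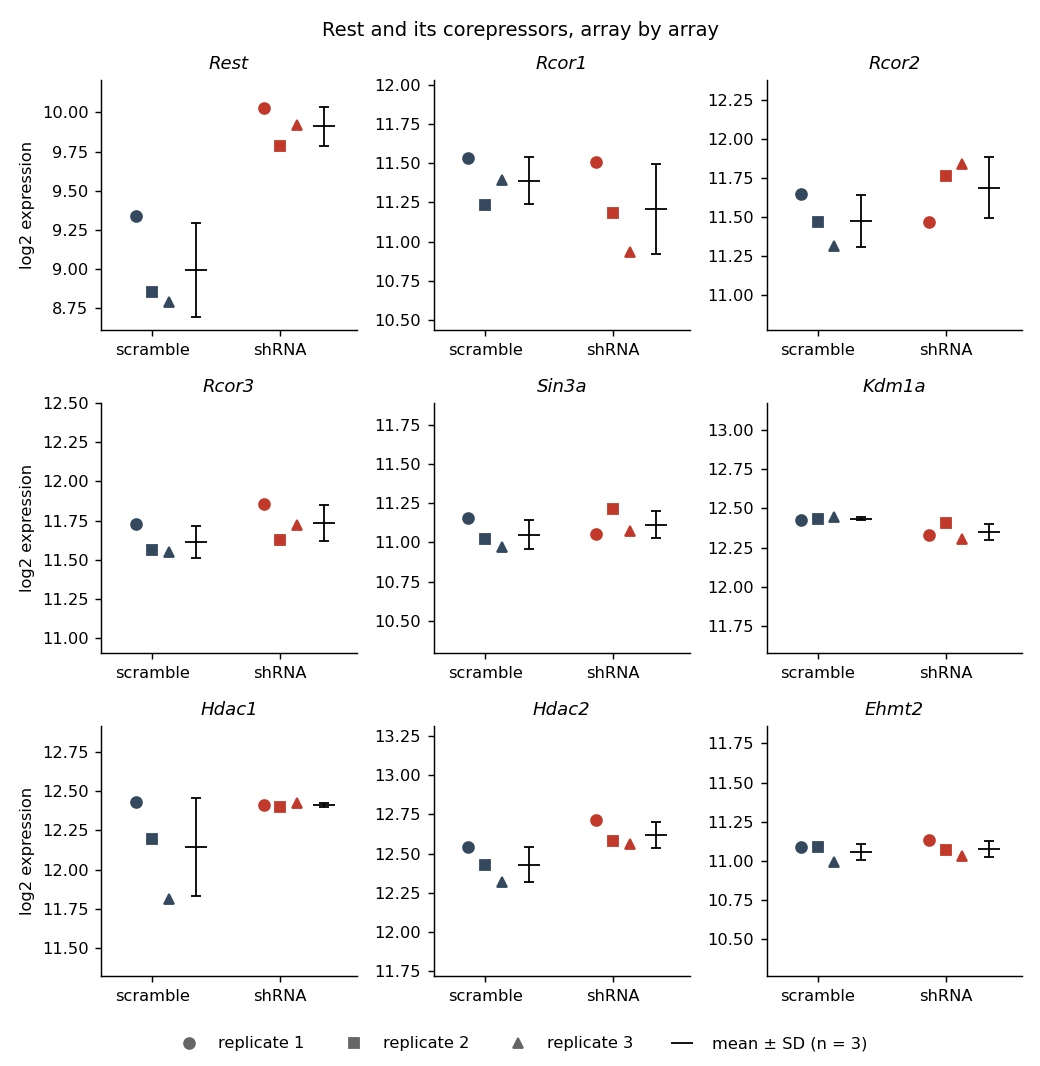
Log2 expression of Rest and 8 corepressor genes in the 3 scramble arrays (dark) and the 3 shRNA arrays (red), 1 panel per gene, with the mean ± SD of each group beside the points. Each vertical axis spans the same 1.6 log2 units, and the groups are apart by 0.44 for Rest and by 0.020 for Hdac2 and Kdm1a, while those of the other 6 genes overlap.

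The other 8 members differed by between -0.18 and 0.27 on the log2 scale, and none of them passed an unadjusted p under 0.05 (limma; adjusted p 0.577 to 0.977). Of the 9 members, 7 had a higher and 2 a lower mean under the shRNA. The median difference of the 9 was 0.12, and 0.09 without Rest. One member, Rest, had a higher mean at an unadjusted p under 0.05 and 0 had a lower one. The arrays did not overlap for 2 members with higher means, Rest and Hdac2, and for 1 with a lower mean, Kdm1a. With 9 genes these counts are too small to be set apart from the shares over all genes given above.

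The CoREST scaffolds join LSD1 and the deacetylases to REST. Rcor1, the founding CoREST gene, was at 11.51, 11.19 and 10.93 in shRNA replicates 1 to 3 and at 11.53, 11.23 and 11.39 in the scramble replicates. Its log2 difference was -0.18 (95% interval -0.57 to 0.21, limma adjusted p = 0.818), with shRNA replicate 3 alone below all scramble arrays by more than the scramble SD of 0.15. Rcor2, the form best known from neural progenitors, went the other way in its means. It was at 11.47, 11.76 and 11.84 under the shRNA and at 11.65, 11.47 and 11.32 under scramble, a log2 difference of 0.21 (-0.12 to 0.54, limma adjusted p = 0.683). Its groups overlapped only through shRNA replicate 1, which was 0.18 below scramble replicate 1. Rcor3 was at 11.86, 11.62 and 11.72 under the shRNA and at 11.73, 11.56 and 11.55 under scramble. Its difference of 0.12 (-0.12 to 0.36, limma adjusted p = 0.792) lay within an interval that holds 0, as did those of both other scaffolds.

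Kdm1a encodes LSD1, which removes methyl groups from lysine 4 of histone H3. Its level was 12.33, 12.40 and 12.31 under the shRNA and 12.42, 12.43 and 12.44 under scramble. All 3 shRNA values were the lower, but only by 0.020 at the nearest, and the log2 difference was -0.09 (95% interval -0.27 to 0.10, limma adjusted p = 0.811). Sin3a, the scaffold that holds deacetylases at the other end of REST, was at 11.05, 11.21 and 11.07 under the shRNA and at 11.15, 11.03 and 10.97 under scramble. Its difference was 0.06 (-0.16 to 0.29, limma adjusted p = 0.917), and its groups overlapped.

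Hdac1 and Hdac2 encode the deacetylases shared by the CoREST and Sin3 complexes. Hdac1 was at 12.41, 12.40 and 12.42 under the shRNA and at 12.43, 12.19 and 11.81 under scramble. Scramble replicate 1 stood with the shRNA arrays and the other scramble arrays lay below them, so the groups overlapped, with a log2 difference of 0.27 (95% interval -0.11 to 0.65, limma adjusted p = 0.647). A second Hdac1 probe, annotated with the same accessions, gave 0.31. Hdac2 was at 12.71, 12.58 and 12.56 under the shRNA and at 12.54, 12.42 and 12.32 under scramble. All its shRNA values were the higher, by 0.020 at the nearest, and the difference was 0.19 (-0.04 to 0.42, limma adjusted p = 0.577). Without scramble replicate 1, both deacetylases passed an unadjusted p under 0.05 (limma) beside Rest, which made 3 members in place of 1, and 19.4% of all genes passed it in either direction against 11.7% with all arrays.

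Ehmt2 encodes G9a, which methylates lysine 9 of histone H3. It was at 11.13, 11.07 and 11.03 under the shRNA and at 11.09, 11.09 and 10.995 under scramble. The groups overlapped almost wholly, and the difference of 0.02 (95% interval -0.17 to 0.21, limma adjusted p = 0.977) is the smallest in size of the 9.

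Because paralogs can stand in for each other in these complexes, the log2 ratio of paired genes was taken within each array, which cancels any scale that an array's values share. The ratio of Rcor3 to Rcor1 was 0.35, 0.44 and 0.79 under the shRNA and 0.20, 0.33 and 0.16 under scramble. These did not overlap, and the difference of 0.30 had an exact permutation p of 0.1, or 0.5 after adjustment over the 5 ratios examined. The ratio of Rcor2 to Rcor1 was -0.04, 0.58 and 0.91 under the shRNA and 0.11, 0.24 and -0.08 under scramble, a difference of 0.39 (exact permutation p = 0.3, adjusted 0.5). Its shRNA arrays spread widely (SD 0.48), and replicate 1 lay among the scramble arrays. The ratios of Hdac2 to Hdac1 (-0.08), Sin3b to Sin3a (-0.15) and Ehmt1 to Ehmt2 (0.04) differed by less than those of the scaffolds, with exact permutation p from 0.3 to 0.7.

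Of the listed partners of these complexes, 39 genes were measured, all above the olfactory level. Of these 39, 13 had a lower mean, against 48.8% of the 13631 genes above that level. At an unadjusted p under 0.05 (limma), 4 had a higher and 1 a lower mean, against 1174 and 1031 of the 13631. All shRNA arrays were higher for 5 and lower for 2, against 1550 and 1307. The CoREST list (10 genes) had 4 higher and 6 lower means and a median difference of -0.07. Zmym3, a zinc finger protein found with CoREST complexes, was the one that passed an unadjusted p under 0.05 (limma), with a lower mean. It was at 9.88, 10.27 and 10.28 under the shRNA and at 10.62, 10.54 and 10.69 under scramble, a log2 difference of -0.47 (standard error 0.13, limma adjusted p = 0.395). Its groups were apart by 0.26. The other named CoREST partners had intervals that hold 0: the HMG-box protein gene Hmg20b (0.14), the histone reader gene Phf21a (-0.19), Zmym2 (-0.12) and the corepressor genes Ctbp1 (-0.08) and Ctbp2 (0.17).

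The Sin3 list (14 genes) had 9 higher and 5 lower means and a median of 0.06. Suds3, a subunit of the Sin3 complex, was at 12.23, 12.05 and 12.15 under the shRNA and at 12.01, 11.77 and 11.75 under scramble. Its arrays did not overlap, and its difference was 0.30 (standard error 0.11, limma unadjusted p = 0.0273, adjusted p = 0.443). Sin3b, the paralog of Sin3a, differed by -0.08 and Hdac3, the deacetylase of the NCoR complexes, by -0.07, both with intervals that hold 0.

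Other silencing partners (15 genes) had 13 higher and 2 lower means and a median of 0.13. Ezh2, the methyltransferase of Polycomb complex PRC2, was at 13.16, 12.86 and 12.87 under the shRNA and at 12.81, 12.33 and 12.05 under scramble, a log2 difference of 0.57 (standard error 0.20, limma adjusted p = 0.441). Scramble replicate 1 was again the nearest, 0.056 below the lowest shRNA array. Ctdspl, one of the small phosphatases that act with REST on RNA polymerase II, had a difference of 0.37, and Cdyl, a chromodomain protein that bridges REST and G9a, one of 0.30. These 3 genes passed an unadjusted p under 0.05 (limma, adjusted p 0.424 to 0.469), against 6.22% of all genes with a higher mean. Their arrays did not overlap, against 9.13% of all genes with all shRNA arrays higher. Ehmt1, the partner of G9a, had a difference of 0.06. Kdm5c, a demethylase of lysine 4 of histone H3, had lower values in all shRNA arrays with a difference of -0.13 (interval -0.33 to 0.06).

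**Figure D2:**
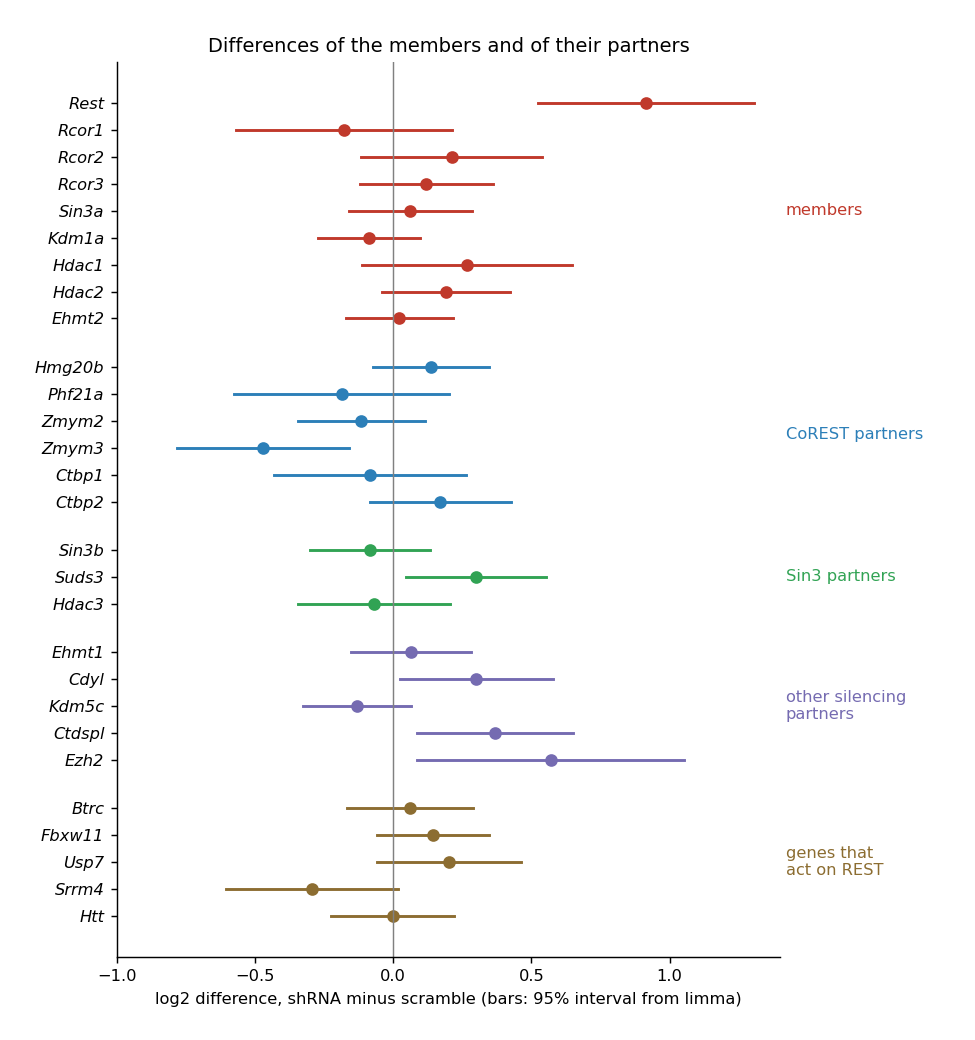
Log2 difference, shRNA minus scramble, of the 9 members, of named partner genes and of named genes that act on REST, with 95% intervals from limma (3 arrays per group). Rest at 0.92 is the farthest from 0, and the intervals of the other 8 members all hold 0.

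Genes that act on the REST protein or transcript were listed as well (13 genes), and 9 had a higher and 4 a lower mean, with a median of 0.12 and 0 past an unadjusted p under 0.05 in either direction (limma). Btrc (0.06) and Fbxw11 (0.14), which encode the β-TrCP proteins that mark REST for degradation, had intervals that hold 0. So did Usp7 (0.20), the gene of a deubiquitinase that stabilises REST, and Htt (-0.0024), whose protein holds REST in the cytoplasm. Srrm4, whose product switches Rest splicing to a truncated form and which is itself a REST target, was at 10.11, 10.58 and 10.41 under the shRNA and at 10.63, 10.64 and 10.71 under scramble. All its shRNA values were the lower, by 0.053 at the nearest, with a difference of -0.29 (95% interval -0.61 to 0.02, limma unadjusted p = 0.0612, adjusted p = 0.516).

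The listed target genes of REST are mostly neuronal genes with an RE1 element. Of 54 measured, 38 had a lower and 16 a higher mean under the shRNA, against 49.0% lower means among all genes. At an unadjusted p under 0.05 (limma), 15 had a lower mean and 0 a higher one, against 5.46% and 6.22% of all genes. The arrays did not overlap for 14, all lower under the shRNA, against 7.63% of all genes. These 15 and 14 all lay above the olfactory level. Of the 13631 genes there, 1031 had a lower mean past that p and 1307 had all shRNA arrays lower. The 43 targets above the olfactory level had 33 lower means and a median difference of -0.24, against 0.005 for all genes above that level. The 11 others had 5 lower means and a median of 0.0013. The list was drawn up with earlier results of these arrays known, so its counts describe the chosen genes. The 15 became 7 without shRNA replicate 3, 9 without shRNA replicate 1 and 8 without scramble replicate 2 or 3. Fewer genes of all kinds passed the threshold then too, counted in either direction (5.33% to 10.7% against 11.7%). After centring on array medians the 15 became 10, with 11.4% of all genes past it in either direction. With the replicate number as a block 18 targets had a lower mean past it, of which 14 were shared with the 15. In that fit 14.6% of all genes passed in either direction.

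The targets with the largest differences were Dbh (-1.34), Th (-1.08) and Chgb (-1.01). Chgb, a granin of secretory granules, was at 12.55, 12.76 and 12.62 under the shRNA and at 13.50, 13.79 and 13.69 under scramble. It had the lowest p of the targets, with a log2 difference of -1.01 (standard error 0.11, 95% interval -1.28 to -0.75) or 2.02-fold lower, and it ranked 4 of 19938 by p (limma adjusted p = 0.297). Chga, its relative, differed by -0.23, and its groups overlapped. Th, the first enzyme of catecholamine synthesis, was at 8.48, 9.36 and 8.75 under the shRNA and at 9.68, 10.27 and 9.89 under scramble (log2 difference -1.08, limma adjusted p = 0.363). Dbh, which makes noradrenaline, was at 11.30, 9.86 and 9.79 under the shRNA and at 11.95, 12.003 and 11.01 under scramble, and shRNA replicate 1 lay above scramble replicate 3. The other granule genes of the list differed less: Vgf, a neuropeptide precursor gene, by -0.38, and the granin genes Scg2 by -0.38 and Scg3 by -0.39, all with overlapping groups. With the replicate number as a block, Scg2 and Scg3 passed an unadjusted p under 0.05 (limma adjusted p = 0.278 and 0.314).

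Of the genes of synaptic vesicles and their release, Syp (synaptophysin) was at 9.87, 9.97 and 9.72 under the shRNA and at 10.42, 10.96 and 10.75 under scramble, a difference of -0.86 (standard error 0.15, limma adjusted p = 0.344). Syn1 (synapsin) was at 10.80, 10.26 and 9.88 against 10.91, 11.23 and 11.20 (difference -0.80, limma adjusted p = 0.401). Neither gene's groups overlapped, although shRNA replicate 1 of Syn1 was within 0.11 of a scramble array. Snap25, a SNARE gene of vesicle fusion, had a difference of -0.58 with a 95% interval of -1.45 to 0.28 (limma adjusted p = 0.670), and its arrays spread widely within both groups. It was lower in each pair of same-numbered arrays (differences of -0.76, -0.37 and -0.61). With the replicate number as a block its interval was -0.87 to -0.29 (limma unadjusted p = 0.00344, adjusted p = 0.256). The labels do not state what this number marks, so that interval rests on an assumed pairing. Syt7, a calcium sensor gene, differed by -0.46 and Rab3c by -0.34, and the arrays of both did not overlap. Other genes of this kind differed less or the other way, with overlapping groups: Syt4 (-0.18), Unc13a (-0.10), the syntaxin gene Stx1a (-0.01) and the complexin gene Cplx1 (0.30). With the block, Cplx1 passed an unadjusted p under 0.05 with a higher mean (limma adjusted p = 0.309).

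Among channels, adhesion molecules and growth genes, the shRNA means were lower for the sodium channel genes Scn3b (-0.52, no overlap) and Scn2a (-0.57, overlap). Scn2a was represented by the brightest of its 14 probes, and all 14 had lower means, from -0.64 to -0.22. The calcium channel gene Cacna1h (-0.44), the glutamate receptor gene Gria2 (-0.34) and Stmn2, a microtubule regulator of growing axons (-0.35), did not overlap between groups. Mapk8ip2, a JNK scaffold gene (-0.53), and L1cam, a neural adhesion molecule gene (-0.60), passed an unadjusted p under 0.05 (limma; adjusted p 0.462 and 0.483) with overlapping arrays. Celsr3, a cadherin of axon guidance, had lower values in every shRNA array (-0.24), without passing that threshold (limma unadjusted p = 0.058). Bdnf, a neurotrophin gene and well known REST target, was at 6.96 to 7.17 under the shRNA and 7.06 to 7.20 under scramble, within the olfactory background, so no difference could be read for it. In the opposite direction, the largest higher mean of a target was that of Bex1 (0.40), whose groups overlapped.

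**Figure D3:**
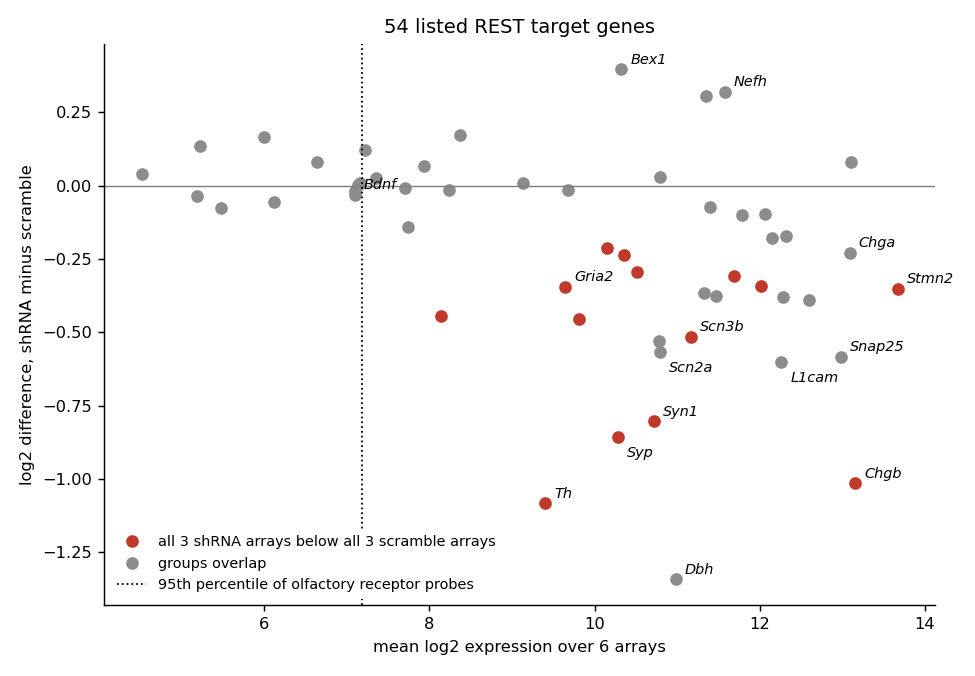
Log2 difference, shRNA minus scramble, of 54 listed REST target genes against their mean log2 expression over the 6 arrays, with the olfactory receptor level of 7.19 as a dotted line. The 14 targets whose arrays do not overlap (red) all lie below 0 and above that level, and targets left of the line lie close to 0.

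The promoters were searched for the core letters of the RE1 element, read as AGCACC, any 2 bases, and GGACAG, on both strands of RefSeq promoters (GRCm38.p6) that run from 250 bases before to 50 after a gene's start. Of 27025 genes with a promoter, 16 held them, which is 0.0592%. Promoters were present for 40 of the 54 targets and 7 of the 9 members, and 2 targets and 0 members held the letters. RE1 elements are often far from gene starts, so the search says only which of these windows hold the letters. The 3 windows below are those whose genes had lower values in every shRNA array. Gria2 and Scamp5, the gene of a membrane protein of secretory vesicles, are listed targets, and Fam163b came from the search alone. Each is printed on the gene's strand, 5′ to 3′, with the matched letters in capitals and 30 bases on each side.
Gria2 (chr3:80802962-80803035, minus strand): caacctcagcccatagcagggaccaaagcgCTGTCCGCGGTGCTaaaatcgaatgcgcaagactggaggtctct
Scamp5 (chr9:57468168-57468241, minus strand): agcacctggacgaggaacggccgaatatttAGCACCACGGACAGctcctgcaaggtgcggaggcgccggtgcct
Fam163b (chr2:27142535-27142608, minus strand): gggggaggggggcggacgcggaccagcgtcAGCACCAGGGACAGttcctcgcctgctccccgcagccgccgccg

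In Gria2 the letters were on the opposite strand and began 170 bases before a RefSeq start. That start lies inside the annotated span of Gria2 (chr3:80681450-80804227). In Scamp5 and Fam163b the letters were on the gene's own strand, 151 and 101 bases before the start used. Gria2 was at 9.42, 9.51 and 9.48 under the shRNA and at 10.06, 9.53 and 9.86 under scramble. Scamp5 was at 11.35, 11.64 and 11.62 against 11.68, 11.99 and 11.87, a difference of -0.31, and Fam163b at 8.61, 8.25 and 8.31 against 8.63, 8.82 and 8.82, a difference of -0.37. The separation of the groups was small for all of them, and the limma adjusted p was 0.431 to 0.493. Of the 16 genes with the letters, 14 were measured and 11 lay above the olfactory level. Of these 11, 9 had a lower and 2 a higher mean, with a median difference of -0.08. The 3 printed above passed an unadjusted p under 0.05 (limma), all lower. Among the 13631 genes above that level, 48.8% had a lower mean and 1031 had one past that p. Some of the 9 lay near 0, among them Sptbn4 (-0.03), and the median of all 14 measured was -0.02. With so few genes these counts describe the windows found. Gria2 did not pass with the replicate number as a block (limma unadjusted p = 0.0613).

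The same core occurs in promoters of genes with nearly equal means, shown for comparison by the pair nearest 0 among those 11, Lhx3 and Ttc9b.
Lhx3 (chr2:26208246-26208319, minus strand): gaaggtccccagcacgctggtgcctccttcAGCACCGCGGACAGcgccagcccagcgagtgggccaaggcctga
Ttc9b (chr7:27653912-27653973, plus strand): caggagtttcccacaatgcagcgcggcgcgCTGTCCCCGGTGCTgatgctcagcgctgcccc
Lhx3, a LIM homeodomain factor gene, had a difference of -0.0057 (95% interval -0.32 to 0.30) and Ttc9b one of -0.007 (-0.25 to 0.23). Both sets of windows were chosen by these differences, so the contrast between them is fixed by that choice.

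The lists of other genes that moved beside Rest are given array by array. The mean of the 43 targets above the olfactory level was 10.47, 10.62 and 10.55 under the shRNA and 10.74, 10.88 and 10.85 under scramble. Scramble replicate 1, where Rest was the highest of its group, had the lowest target mean of its group. This is an order over 3 arrays, and a link between the levels of Rest and of the targets was not tested. The 15 listed cell cycle genes all had a higher mean under the shRNA, with a median difference of 0.73. Of them, 4 passed an unadjusted p under 0.05 (limma), against 6.22% of all genes with a higher mean. These 15 genes had a median difference of 0.43 without scramble replicate 3 and 1.09 without scramble replicate 1. Their mean was 12.61, 12.41 and 12.41 under the shRNA and 12.49, 11.65 and 11.13 under scramble. In this mean, scramble replicate 1 thus lay among the shRNA arrays, which it did not for Rest. For 4 of the 15 genes (Bub1, Plk1, Aurkb and Mcm7) it lay below every shRNA array, as for Rest. The groups of these 4 did not overlap, against 9.13% of all genes with all shRNA arrays higher. None of the 9 members is in the cell cycle list, and the part of cell cycle differences in the values of Rest, Hdac1 and Ezh2 was not tested.

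Markers of the neuroblast type, 11 genes all above the olfactory level, had a lower mean for 10 and a median difference of -0.23. Among all 13631 genes above that level, 48.8% had a lower mean. The mean over these markers was 11.33 to 11.45 under the shRNA and 11.66 to 11.92 under scramble. Of these markers 4 (Th, Dbh, Chga and Tubb3) are also listed REST targets, and 6 of the other 7 had lower means. The target list without the shared genes had 29 lower means of 39 above the olfactory level, with a median of -0.24. Of the markers of other cell types, 2 of 7 macrophage, 3 of 6 epithelial and 3 of 5 glial ones were above the olfactory level, among them Krt8 (8.78 to 9.04) and Mbp (8.25 to 8.45), and their list means differed between the groups by 0.02 at most. Of the fibroblast markers, 6 of 7 were above it and 6 of 7 had a higher mean, with a median difference of 0.04. Pdgfra differed by 0.55 without overlap (limma unadjusted p = 0.00519, adjusted p = 0.371). Pdgfrb differed by -0.57 with overlapping groups (limma unadjusted p = 0.401). In bulk RNA, fewer cells of a type and less RNA per cell cannot be told apart, and the part of cell make-up in these differences was not tested.

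**Figure D4:**
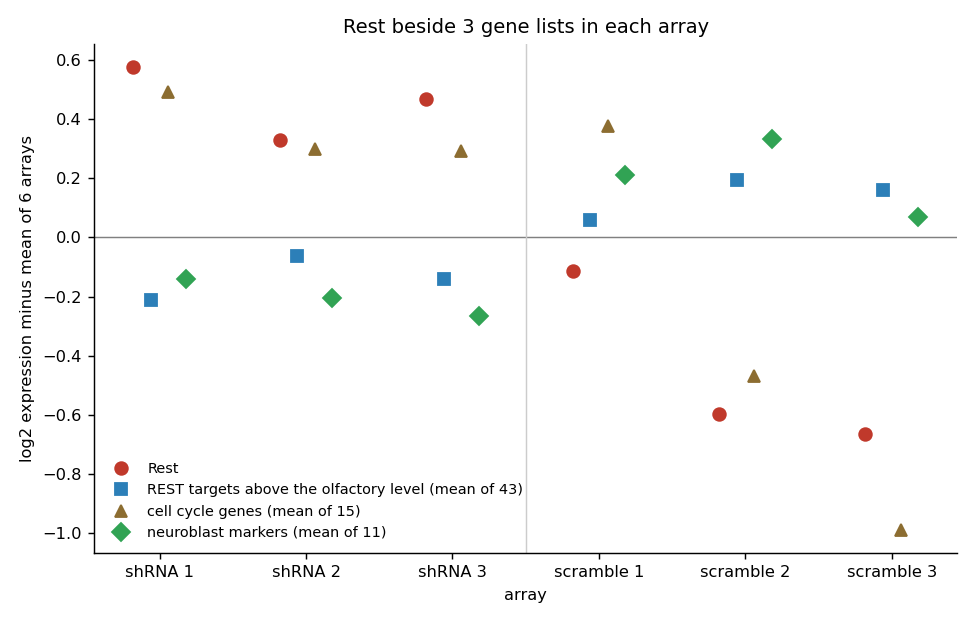
Log2 expression in each array minus the mean of the 6 arrays, for Rest and for the means of 43 REST targets, 15 cell cycle genes and 11 neuroblast markers. Rest lies above 0 in the 3 shRNA arrays and below it in the 3 scramble arrays, the targets and neuroblast markers lie on the other side, and the cell cycle genes lie above 0 in scramble replicate 1 as well.

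The genes whose pattern over the 6 arrays was most like that of Rest were found by Pearson correlation among 5045 genes above the olfactory level with an SD over 0.2. These are descriptions over 6 arrays that fall into groups by construct, so any gene with well separated groups scores highly. They were Trim71, an RNA-binding ubiquitin ligase of stem cells (r = 0.998), Socs7, Cdk8, the kinase of the Mediator complex, Sik1 and Grhl1 (r = 0.993). Trim71 was at 9.99, 9.87 and 9.98 under the shRNA and at 9.59, 9.29 and 9.20 under scramble, which repeats the order of the 6 arrays for Rest. The most opposite were Tmem74 (r = -0.998), the survival gene Bcl2, Cibar2, Trim35 and the calcium channel subunit gene Orai3 (r = -0.995). Bcl2 was at 9.96, 10.11 and 10.10 under the shRNA and at 10.42, 10.74 and 10.80 under scramble. Of the 8 corepressors, 2 (Rcor1 and Hdac1) passed the SD filter and entered the search, and neither was among these genes.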

How the data were processed

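The authors deposited log2 expression values, 1 per probe and array, in a table of 35556 probes; how they were background-corrected, summarized and normalized is not given in the sources used here. Array medians were 7.75 to 7.86, no arrays were identical, and no further normalization was applied. Arrays hold no read depth, and their number limits the precision. Of the probes, 21789 carried 1 gene symbol (19938 genes) and 161 of 175 listed symbols matched. The members and the gene lists were chosen with earlier results of these data known.

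The lmFit and eBayes functions of limma 3.58.1 (R 4.3.3; a term for construct, all probes, two-sided) gave differences and 95% intervals, with Benjamini-Hochberg adjustment over all probes; it was tested on simulated data. Exact permutation tests used scipy 1.17.1, and figures matplotlib 3.10.9. The methods state transfections in triplicate. Deviations from construct means correlated across probes at 0.291, 0.137 and 0.103 between arrays with the same number, so a fit with this number as a block was added. Other pairs had -0.255 to 0.199, and the labels do not state what the number marks, so the block is an assumption.

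Named genes were the members, set partners, regulators and targets, up to 4 genes per list and direction with the lowest unadjusted p under 0.05 and no overlap, and the 5 most like and most opposite to Rest. Some other targets, and the genes found by the promoter search, were named after their values were seen. Alternatives were quantile normalization, centring on array medians, a trended robust variance, array weights, the block, only probes above the olfactory level, the mean of a gene's probes, each array left out, both arrays numbered 1 left out, and no size criterion.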

Additional observations from a re-analysis of the deposited data

How the results depend on the processing

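Rest had a higher mean under the shRNA under all 14 alternatives run, by 0.81 to 1.09 on the log2 scale. Its groups do not overlap, so leaving arrays out or weighting them could not reverse that sign. The trended robust variance, the block, the filter at the olfactory level and the probe mean leave its difference unchanged by design. The other members kept the sign of their difference except Ehmt2. The limma adjusted p of Rest was 0.0614 to 0.844 with single arrays left out and 0.0891 without both arrays numbered 1. With array weights it was 0.0171 at a difference of 1.03, and limma then called 1320 genes (685 higher, 635 lower) against 0 in every other setting; the weights rest on 3 arrays a group and ran from 0.353 for scramble replicate 1 to 5.32 for shRNA replicate 3. With the replicate block, 0 genes were called and Rest differed by 0.92 (adjusted p = 0.235), and no call changed. Members with a higher mean past an unadjusted p under 0.05 (limma) numbered 1 with all arrays weighted alike, 4 with array weights (Rest, Rcor2, Hdac1 and Hdac2, with 1 lower, Rcor1), 3 without both arrays numbered 1 and 1 to 3 with single arrays left out; the share of all genes past that p in either direction was 32.6% with array weights and 21.2% without both arrays numbered 1, against 11.7%. REST targets with a lower mean past that p numbered 15 as first fitted and 10 after centring on array medians (11.4% of all genes in either direction). They numbered 17 after quantile normalization and 14 with a trended robust variance. There were 23 with array weights (beside that share of 32.6%) and 18 with the replicate block (14.6% of all genes). Without both arrays numbered 1 there were 18, and 7 to 17 with single arrays left out. Targets with a higher mean numbered 1 after centring on array medians, 4 with array weights and 2 with the replicate block. They numbered 3 without both arrays numbered 1 and 0 to 3 with single arrays left out. The median of the targets above the olfactory level stayed between -0.29 and -0.16. Ehmt2 differed by -0.0012 after quantile normalization, -0.021 with array weights, -0.0062 without shRNA replicate 1 and -0.01 without scramble replicate 3, against 0.043 as the highest value with an array left out (without shRNA replicate 3), and the ratio of Hdac2 to Hdac1 by 0.035 without scramble replicate 3; the cause was not tested. With 3 arrays against 3, differences within the intervals given could not be told from 0, and targets within the olfactory background could not be read.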

Other observations

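Without scramble replicate 1 the median log2 difference was 0.18 for the Sin3 partners and 0.27 for the other silencing partners, against 0.06 and 0.13 with all arrays. Without scramble replicate 3 these medians were -0.01 and 0.08. The CoREST partners had a median between -0.09 and -0.01 under all 14 alternatives. The list mean of the CoREST partners was 10.96, 11.11 and 11.02 under the shRNA and 11.11, 11.05 and 11.09 under scramble, and that of the genes that act on REST was 11.19, 11.15 and 11.15 against 11.14, 11.07 and 11.07.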
